A study of Arabidopsis thaliana with 4 samples.

Results

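The ribosomal RNA (rRNA) operon of the Arabidopsis thaliana chloroplast was followed position by position in RNA that co-purified with an antibody against the HA tag. The operon of the first inverted repeat was taken from the start of the 16S rRNA gene to the end of the 5S rRNA gene, chloroplast positions 101012 to 108069 on the plus strand of the TAIR10.1 assembly. This interval holds 4 rRNA genes and 2 intron-containing tRNA genes. It was divided into 15 annotated segments of the 309 that tile the chloroplast genome, and it covers 141 of the 3090 bins of 50 nt. Both inverted repeats carry the same operon. Their reads could not be told apart, and the coverage of one copy was between 0.999 and 1.00 times that of the other in every library.

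The tested plants carried a transgene for dPPRrbcL, a designer pentatricopeptide repeat (PPR) protein. PPR proteins are RNA-binding proteins of organelles, and this one was directed at the rbcL mRNA, which encodes the large subunit of Rubisco. Stroma, the soluble content of the chloroplast, was prepared from 2-week-old plants and immunoprecipitated with the HA antibody (RIP-seq). There were 2 dPPRrbcL libraries and 2 libraries of wild-type Col-0 plants (WT). The wild-type extracts were treated with the same antibody and give the background of the procedure, so that the comparison asks which RNAs co-purify beyond it. The input of every library was 50 ng of RNA. The labels name neither the promoter of the transgene nor the number of transgenic lines, and they do not say whether the libraries of a group came from separate plant batches. The p-values therefore measure the spread between these libraries, which may be technical.

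In the chloroplast, as in bacteria, the rRNAs are made as 1 long precursor. The order along it is 16S rRNA, the tRNAs for isoleucine (trnI) and alanine (trnA), 23S rRNA, 4.5S rRNA and 5S rRNA. The spacers and the group II introns of both tRNAs are removed as the precursor matures, so reads in them mark RNA that still carries precursor sequence. The 16S rRNA belongs to the small ribosomal subunit, and the other rRNAs to the large subunit. The 4.5S rRNA corresponds to the 3′ end of the bacterial 23S rRNA. The chloroplast 23S rRNA is also cut at internal sites called hidden breaks, which leave fragments that stay together in the ribosome.

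The sequences at the borders and low points on which the results turn were read from the TAIR10.1 chloroplast sequence of NCBI RefSeq, plus strand, 5′ to 3′. Both ends of the 23S rRNA gene (104691 to 107500, ArthCr087) are shown because the largest decreases in dPPRrbcL relative to WT stood near them. Capitals mark bases inside the annotated gene.
23S 5′ end, 104671 to 104740: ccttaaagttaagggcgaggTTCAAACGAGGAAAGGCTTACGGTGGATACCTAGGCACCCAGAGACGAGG
23S 3′ end, 107451 to 107530: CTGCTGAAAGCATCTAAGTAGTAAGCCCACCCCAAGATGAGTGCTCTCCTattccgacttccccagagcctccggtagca

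Coverage had 4 low points inside the 23S rRNA, and the sequence around each is given with the 10 nt at the lowest position in capitals.
Low point at 105642, 105617 to 105666: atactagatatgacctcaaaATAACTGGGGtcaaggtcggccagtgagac
Low point at 105899, 105874 to 105923: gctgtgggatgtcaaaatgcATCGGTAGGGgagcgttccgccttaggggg
Low point at 106182, 106157 to 106206: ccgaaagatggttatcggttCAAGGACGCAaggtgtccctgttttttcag
Low point at 106446, 106421 to 106470: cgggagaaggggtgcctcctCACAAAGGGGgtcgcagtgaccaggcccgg

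The remaining sequences belong to the 3′ part of the operon and to the 3′ end of the 16S rRNA. In the stretch downstream of the 4.5S rRNA, capitals mark 10 nt (107830 to 107839) at the steepest fall of coverage. That fall came at 107829 in dPPRrbcL and 107831 in WT. In the 16S rRNA, capitals mark CCTCC (102495 to 102499), the core of the sequence that pairs with Shine-Dalgarno elements of mRNAs. CCTCC on either strand occurs in 1.98% of the 154459 windows of 20 nt of the chloroplast genome.
4.5S rRNA, 107599 to 107701: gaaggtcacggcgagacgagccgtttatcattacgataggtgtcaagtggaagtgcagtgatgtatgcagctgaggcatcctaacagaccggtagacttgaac
Fall after 4.5S, 107800 to 107859: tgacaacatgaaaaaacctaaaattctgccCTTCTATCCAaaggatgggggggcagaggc
5S rRNA, 107949 to 108069: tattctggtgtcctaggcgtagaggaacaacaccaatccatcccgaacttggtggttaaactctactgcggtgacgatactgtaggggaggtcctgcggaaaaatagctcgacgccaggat
16S 3′ end, 102443 to 102502: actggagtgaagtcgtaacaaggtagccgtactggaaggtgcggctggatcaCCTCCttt

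The operon dominated every library. Averaged over all chloroplast positions, coverage came to 12167 and 12762 reads per nucleotide in the dPPRrbcL libraries, against 12917 and 10373 in the WT libraries. The operon and its copy together took 92.4% and 93.4% of the summed coverage in dPPRrbcL, against 99.5% and 99.3% in WT. Positions outside rRNA and tRNA genes averaged 1172 and 1082 reads per nucleotide in dPPRrbcL, against 128 and 145 in WT. The rest of the genome was thus covered more deeply in dPPRrbcL, and a comparison of the operon between groups depends on what the libraries are scaled to. Ratios between regions of the operon within a library need no such scaling and are given first.

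**Figure D1:**
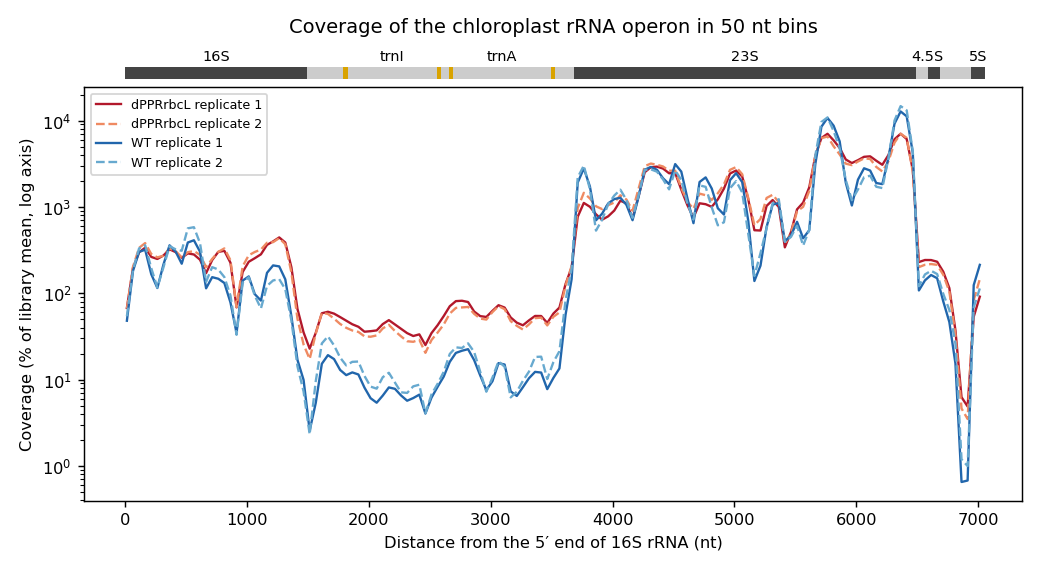
Coverage of the rRNA operon in bins of 50 nt (percent of the library mean, log axis) against the distance from the 16S start (nt), 1 line per library, with the annotated genes drawn as a map. The deepest bins of all 4 libraries lie in 23S, and the stretch between 16S and 23S is higher in both dPPRrbcL libraries than in both WT libraries.

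The 23S rRNA was by far the most covered RNA of the operon, and its excess over 16S was smaller in dPPRrbcL. The 23S rRNA (rrn23S, 2810 nt), the catalytic RNA of the large subunit, averaged 284506 and 301487 reads per nucleotide in the dPPRrbcL libraries, against 337218 and 269118 in the WT libraries. The 16S rRNA (rrn16S, 101012 to 102502, ArthCr086, 1491 nt), the decoding RNA of the small subunit, averaged 30694 and 33794 in dPPRrbcL, against 22819 and 20122 in WT. The groups overlapped for 23S and did not overlap for 16S. Within each library, 23S was 9.27 and 8.92 times as deep as 16S in dPPRrbcL, against 14.8 and 13.4 times in WT. The mean ratio was 9.10 ± 0.25 in dPPRrbcL and 14.1 ± 0.99 in WT (SD, n = 2 each), a log2 difference of -0.63. The groups did not overlap, but the exact two-sided permutation test gave p = 0.333, the smallest value that 2 against 2 libraries allow. That floor holds for every within-library ratio below, and their p-values are not repeated.

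Of the coverage that fell on the 4 rRNAs, the 23S rRNA held 94.1% and 93.9% in dPPRrbcL, against 96.1% and 95.8% in WT. The 16S rRNA held 5.39% and 5.59% in dPPRrbcL, against 3.45% and 3.80% in WT. The 4.5S rRNA (107599 to 107701, ArthCt109) held 0.349% and 0.313% in dPPRrbcL, against 0.209% and 0.235% in WT. For these 3 rRNAs the groups did not overlap, with 23S lower in dPPRrbcL and the other two higher. The 5S rRNA held 0.119% and 0.184% in dPPRrbcL, against 0.251% and 0.134% in WT, and here the groups overlapped. These shares are set by gene length as well as by depth. The 4.5S and 5S rRNAs are short, and how the library preparation and mapping treated short RNAs is not given in the sources used here.

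The stretch between 16S and 23S was deeper relative to the mature rRNAs in dPPRrbcL. The transcribed spacers and introns there averaged 3.38% and 3.03% of the mean depth of 16S and 23S in the dPPRrbcL libraries, against 0.799% and 1.05% in the WT libraries. The means were 3.21% ± 0.25 in dPPRrbcL and 0.926% ± 0.179 in WT (SD, n = 2 each), a log2 difference of 1.80 with no overlap. As a share of all operon coverage, spacers, tRNAs and introns made up 2.24% and 1.99% in dPPRrbcL, against 0.648% and 0.827% in WT.

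Set against the 16S rRNA of the same library, the intron of trnI (102838 to 103566, ArthCt107) stood at 15.0% and 12.2% in dPPRrbcL, against 4.11% and 4.93% in WT. The intron of trnA (103703 to 104503, ArthCt108) stood at 23.7% and 20.7% in dPPRrbcL, against 7.20% and 7.60% in WT. Both introns are absent from the mature tRNAs, and both separated the groups without overlap. The spacer between 16S and trnI (102503 to 102800) stood at 19.1% and 16.6% of 16S in dPPRrbcL, against 6.87% and 9.72% in WT. The short spacer between both tRNAs (103602 to 103664) stood at 22.4% and 17.1% in dPPRrbcL, against 6.43% and 6.84% in WT. The spacer just before 23S (104539 to 104690) differed least, with 47.8% and 44.3% of 16S in dPPRrbcL, against 33.7% and 42.9% in WT. The groups of this last spacer lay close together, and it was the deepest stretch between 16S and 23S in every library. Coverage outside rRNA and tRNA genes, at 1172 and 1082 reads per nucleotide in dPPRrbcL, against 128 and 145 in WT, moved in the same direction as these introns and spacers, and its part in their levels was not tested.

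Spacers downstream of 23S were also deeper relative to 23S in dPPRrbcL. The spacer between 23S and 4.5S (107501 to 107598) had 10.08% and 8.74% of the depth of 23S in dPPRrbcL, against 4.73% and 5.47% in WT. The spacer between 4.5S and 5S (107702 to 107948) had 2.91% and 2.62% in dPPRrbcL, against 1.10% and 1.47% in WT. Neither spacer showed overlap between the groups. Relative to the 4.5S rRNA beside it, the 23S-4.5S spacer was at 99.6% and 96.1% in dPPRrbcL, against 79.7% and 81.7% in WT. The mean was 97.8% ± 2.5 in dPPRrbcL and 80.7% ± 1.5 in WT (SD, n = 2 each). The 4.5S rRNA was thus about level with its spacer in dPPRrbcL and stood above it in WT.

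Coverage in this 3′ region ran through 4.5S and fell before 5S. The steepest fall after 4.5S came at 107829 in both dPPRrbcL libraries and at 107831 in both WT libraries, inside the annotated 4.5S-5S spacer, at the sequence printed for it. Over the 10 nt on either side of that point, coverage before and after the fall was 5555 and 812 reads per nucleotide in dPPRrbcL replicate 1 and 5257 and 647 in dPPRrbcL replicate 2. In WT it was 2084 and 76.9 in replicate 1 and 3128 and 119 in replicate 2. The fall was 6.84-fold and 8.12-fold in dPPRrbcL, against 27.1-fold and 26.4-fold in WT. Coverage after the fall was thus a larger fraction of that before it in dPPRrbcL. In every library it lay below the average outside rRNA and tRNA genes, 1172 and 1082 reads per nucleotide in dPPRrbcL, against 128 and 145 in WT. The part of that general coverage in the size of the fall was not tested. Coverage climbed again at the annotated start of 5S (107949 to 108069, annotated as ArthCr091 only in the second copy), with the steepest rise at 107967 and 107966 in dPPRrbcL, against 107965 in both WT libraries. The steepest fall after 5S was at 108070 in both dPPRrbcL libraries, against 108073 in both WT libraries.

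The 5S rRNA itself averaged 8317 and 13738 reads per nucleotide in dPPRrbcL, against 20418 and 8722 in WT. The spread within each group was wider than the difference between the group means. As a share of 23S depth it stood at 2.92% and 4.56% in dPPRrbcL, against 6.05% and 3.24% in WT.

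**Figure D2:**
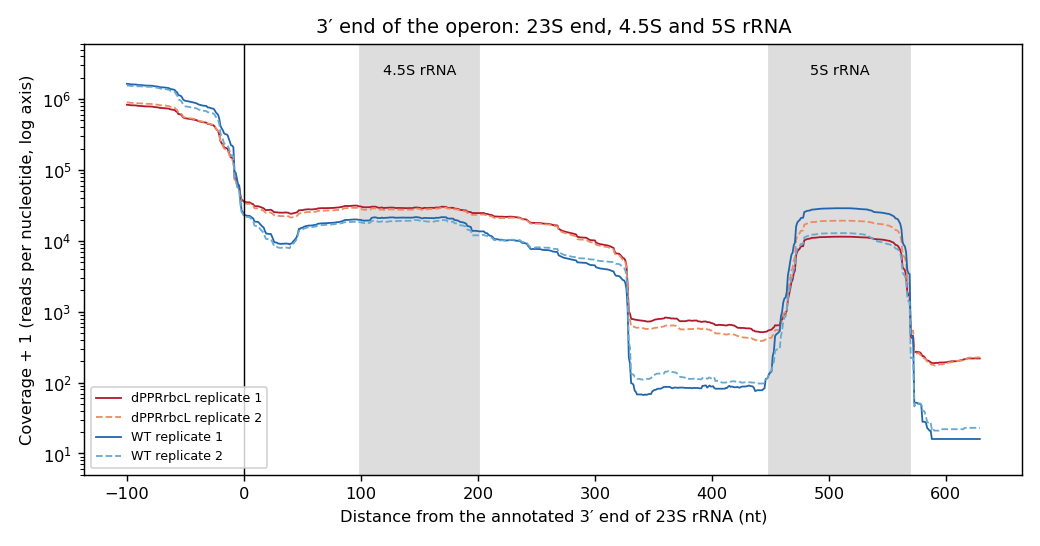
Coverage plus 1 in the 3′ part of the operon (reads per nucleotide, log axis) from the end of 23S to past the end of 5S, against the distance from the annotated 23S end (nt), 1 line per library. All 4 libraries drop at the 23S end, stay close to that level through 4.5S, and fall within the 4.5S-5S spacer by 6.84-fold and 8.12-fold in dPPRrbcL and by 27.1-fold and 26.4-fold in WT.

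Along the 16S rRNA the coverage of the 2 groups had different shapes. The 5′ part (101012 to 101757) averaged 31180 and 34777 reads per nucleotide in dPPRrbcL, against 31253 and 29956 in WT. The 3′ part (101758 to 102502) averaged 30207 and 32809 in dPPRrbcL, against 14373 and 10274 in WT. The ratio of the 3′ to the 5′ part was 0.969 and 0.943 in dPPRrbcL, against 0.460 and 0.343 in WT, a log2 difference of 1.27. In unscaled coverage the groups overlapped in the 5′ part and separated in the 3′ part. The deepest position of 16S was 102263 in both dPPRrbcL libraries, against 101560 in both WT libraries. The last 100 nt, which hold the CCTCC sequence, had 19.4% and 13.9% of the mean depth of 16S in dPPRrbcL, against 7.39% and 5.39% in WT. Upstream of 16S, the 100 nt of leader had 4.18% and 4.14% of the 16S depth in dPPRrbcL, against 1.98% and 2.44% in WT.

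Along the 23S rRNA, coverage was more even in dPPRrbcL. The coefficient of variation over its positions was 77.9% and 70.5% in dPPRrbcL, against 112% and 125% in WT. The 10% of positions with the deepest coverage held 27.8% and 26.5% of all 23S coverage in dPPRrbcL, against 39.9% and 43.7% in WT. The 16S rRNA was also more even in dPPRrbcL, with coefficients of 39.4% and 39.3% in dPPRrbcL, against 63.7% and 77.7% in WT. The deepest position of 23S reached 890512 and 920268 reads per nucleotide in dPPRrbcL, at 106763 and 107392, against 1684651 and 1585255 in WT, at 107392 in both. The first 300 nt of 23S were shallow in all libraries and shallower in dPPRrbcL, at 0.336 and 0.432 times the rest of the gene, against 0.537 and 0.545 times in WT.

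Over the 56 bins of 50 nt of 23S, the Pearson correlation of log2 coverage was 0.989 between the dPPRrbcL libraries and 0.985 between the WT libraries, and 0.834 to 0.874 between libraries of different groups. Over the 30 bins of 16S it was 0.990 within dPPRrbcL, 0.979 within WT and 0.774 to 0.866 between groups. These are descriptions across neighbouring bins of one RNA, which are not independent. The profiles were thus closer within a group than between groups. Between GC content and the log2 change the Pearson correlation across the bins of 23S was 0.07.

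**Figure D3:**
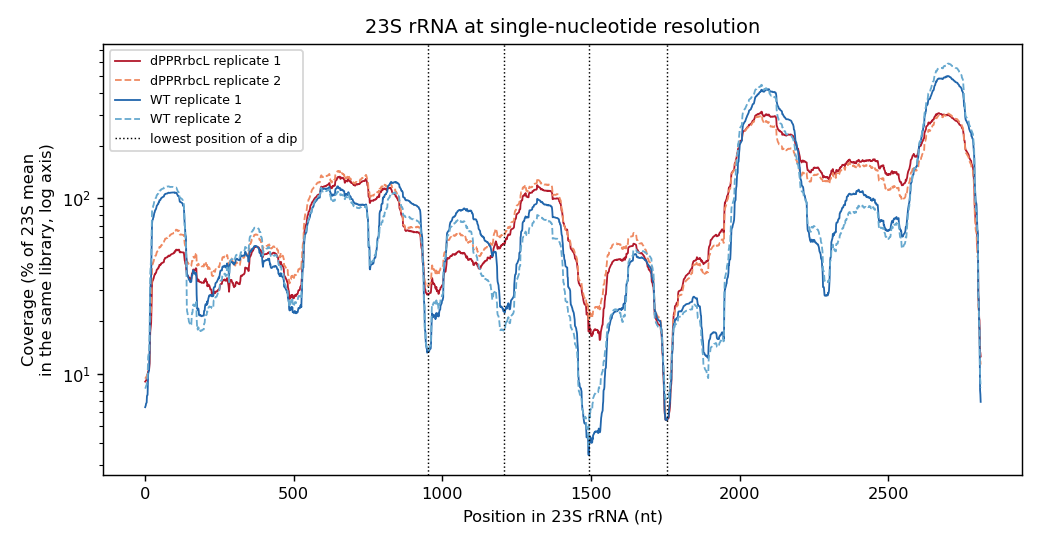
Coverage along the 23S rRNA as a percentage of its mean in the same library (log axis), against the position in 23S (nt), 1 line per library, with the 4 low points marked. In the dip at nt 1492 dPPRrbcL falls to 15.6% and 19.9% and WT to 3.42% and 3.87%, while in the dip at nt 1756 all 4 libraries fall to between 5.42% and 7.08%.

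Hidden breaks were looked for as dips, bins of 50 nt whose coverage in both libraries of a group was under 50% of the lower of the medians of the 4 bins on either side. There were 4 such dips. The first, with its lowest position at 105642 (nt 952 of 23S), met the rule in WT only. Coverage there went down to 80898 and 95755 reads per nucleotide in dPPRrbcL, against 44726 and 36823 in WT. The second, at 105899 (nt 1209), also met the rule in WT only. Here the lowest coverage was 154495 and 186497 in dPPRrbcL, against 75106 and 47167 in WT. In dPPRrbcL the bin was deeper than its lower flank, at 139% and 124% of the lower flank, against 40.4% and 45.3% in WT. The bin was selected by this level in WT, so the contrast is not independent of the rule.

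The third dip, at 106182 (nt 1492), met the rule in both groups. The minimum was 44247 and 59867 reads per nucleotide in dPPRrbcL, against 11525 and 10424 in WT. That was 15.6% and 19.9% of the 23S mean in dPPRrbcL, against 3.42% and 3.87% in WT, so the dip was shallower in dPPRrbcL without overlap. The fourth, at 106446 (nt 1756), met the rule in dPPRrbcL only, at 37.5% and 33.6% of the lower flank, against 58.5% and 64.9% in WT. Its lowest coverage was of the same order in both groups, at 15427 and 18137 in dPPRrbcL, against 18300 and 19042 in WT. Relative to the 23S mean this was 5.42% and 6.02% in dPPRrbcL, against 5.43% and 7.08% in WT. At nt 1756 the groups thus overlapped in depth. The dip was selected by its level relative to the flanks in dPPRrbcL, so the contrast in that level is not independent of the rule. A dip in coverage shows where few reads span, and these files hold no read ends, so the dips are not equated with hidden breaks here. With a limit of 75% of the flank in place of 50% there were 7 dips, and those at nt 952 and nt 1756 then met the rule in both groups. With bins of 20 nt the dip at nt 1756 also met it in both groups, so which group met the rule at these sites depends on the setting.

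The lowest positions divide 23S into 5 stretches. The first 952 nt held 22.1% and 24.9% of 23S coverage in dPPRrbcL, against 23.04% and 22.5% in WT, an overlap with a difference of 0.72 percentage points (exact two-sided permutation p = 1). The sign of this difference turned with median in place of mean coverage, at -12.1 points, and without dPPRrbcL replicate 2, at -0.67 points. The next stretch, of 257 nt, held 3.98% and 4.87% in dPPRrbcL, against 5.06% and 4.003% in WT, again with overlap. The 283 nt between the second and the third low point held 8.05% and 8.66% in dPPRrbcL, against 5.47% and 4.36% in WT. The 264 nt after them held 3.22% and 3.81% in dPPRrbcL, against 2.31% and 2.49% in WT. Both middle stretches, which flank the dip at nt 1492, were higher in dPPRrbcL. The last 1054 nt held most of the coverage, with 62.7% and 57.8% in dPPRrbcL, against 64.1% and 66.7% in WT.

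At 3 of the 4 ends of 16S and 23S the groups overlapped in position. An end was taken as the point where coverage reached 50% of the median of the 200 nt inside the annotated end. At the 5′ end of 23S this point lay 21 nt inside the gene in all 4 libraries. At its 3′ end the offset was -24 and -25 nt in dPPRrbcL, against -25 and -27 nt in WT, where a negative offset is inside the gene. At the 5′ end of 16S it was 36 and 43 nt in dPPRrbcL, against 40 and 45 nt in WT. At the 3′ end of 16S it was -45 and -48 nt in dPPRrbcL, against -31 and -38 nt in WT, the single end of the 4 at which the groups did not overlap. Coverage from fragments declines towards the end of an RNA, so such offsets do not locate the end itself.

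The steepness of the ends did differ. At the 5′ end of 23S coverage rose 2.38-fold and 2.73-fold over neighbouring windows of 10 nt in dPPRrbcL, against 4.90-fold and 4.69-fold in WT, with the steepest point at 104708 in dPPRrbcL and 104707 in WT. At its 3′ end it fell 3.49-fold and 3.51-fold in dPPRrbcL, against 6.33-fold and 5.20-fold in WT. At the 5′ end of 16S it rose 3.38-fold and 3.22-fold in dPPRrbcL, against 6.42-fold and 5.27-fold in WT, at 101023 in all 4 libraries. At these 3 ends the step was smaller in dPPRrbcL, with no overlap. A smaller step also stood in the spacer before 23S, at 104635 in all 4 libraries, of 1.33-fold and 1.41-fold in dPPRrbcL, against 1.87-fold and 1.84-fold in WT.

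Changes between the groups were then tested with limma on log2 coverage relative to the library mean, with p-values adjusted by Benjamini-Hochberg over every feature of the chloroplast genome. Of the 15 segments of the operon, 13 were called higher in dPPRrbcL, 0 lower, and 23S and 5S were not called. Across the genome 98.2% of the 278 segments tested were called higher, so 13 of 15 does not stand out from the background, and 0 were lower, also at an unadjusted p under 0.05. The directions rest on the scaling: with libraries scaled to the median ratio of all features, or to coverage outside rRNA and tRNA genes, all 13 turned lower in dPPRrbcL, while with scaling to the operon itself all 13 remained higher. The median log2 change over all bins of the genome was 1.23 with the library mean, 0.03 with the median ratio, 0.80 with coverage outside rRNA and tRNA genes and 0.22 with the operon mean. The pseudocount was 1% of the scale used, so it changed together with the scaling.

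Relative to the library mean, the 16S rRNA was higher by 0.48 on the log2 scale (SE 0.08, limma adjusted p = 0.00376). The trnI intron averaged 4602 and 4124 reads per nucleotide in dPPRrbcL, against 938 and 992 in WT, and its log2 change was 1.94 with an SE of 0.16 (limma adjusted p = 0.000335). The trnA intron averaged 7261 and 6981 in dPPRrbcL, against 1643 and 1530 in WT, and its log2 change was 1.98 with an SE of 0.10 (limma adjusted p = 0.000116). On this scale both introns lay above the median of all segments, 1.45, and that of all bins, 1.23, and 16S lay below both medians. Those sides depend on the settings: with a pseudocount of 0.1% the introns changed by 2.06 and 2.05 against a median of all bins of 2.76, and with the median ratio by -1.57 and -1.61 against 0.03. With scaling to the operon mean, where the pseudocount was 1% of that mean, 16S changed by 0.55 against a median of all bins of 0.22. The 4 tRNA exons, which mature tRNA and precursor share, changed by 1.73 to 2.04, close to the introns beside them. The 23S rRNA changed by -0.15 (SE 0.06, limma adjusted p = 0.0649), the 4.5S rRNA by 0.46 (SE 0.09, limma adjusted p = 0.00852) and the 5S rRNA by -0.42 (SE 0.39, limma adjusted p = 0.341). The 5S value turned to 0.029 when WT replicate 1 was left out and was -0.87 and called without WT replicate 2, so the value rests on these 2 libraries. It was also called with a variance trend (limma adjusted p = 0.0449), with replicate numbers crossed between groups as a block (limma adjusted p = 0.00995), at -4.10 with the median ratio and at -3.36 with scaling to coverage outside rRNA and tRNA genes. The 23S-4.5S and 4.5S-5S spacers changed by 0.73 and 0.95, and the spacer before 23S by 0.75. With median in place of mean coverage the 4.5S-5S spacer changed by 0.58 (SE 0.32) and was not called (limma adjusted p = 0.153). When dPPRrbcL replicate 1 or dPPRrbcL replicate 2 was left out, the 16S-trnI spacer, the spacer before 23S and the 4.5S-5S spacer were no longer called, nor was 4.5S without dPPRrbcL replicate 1.

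**Figure D4:**
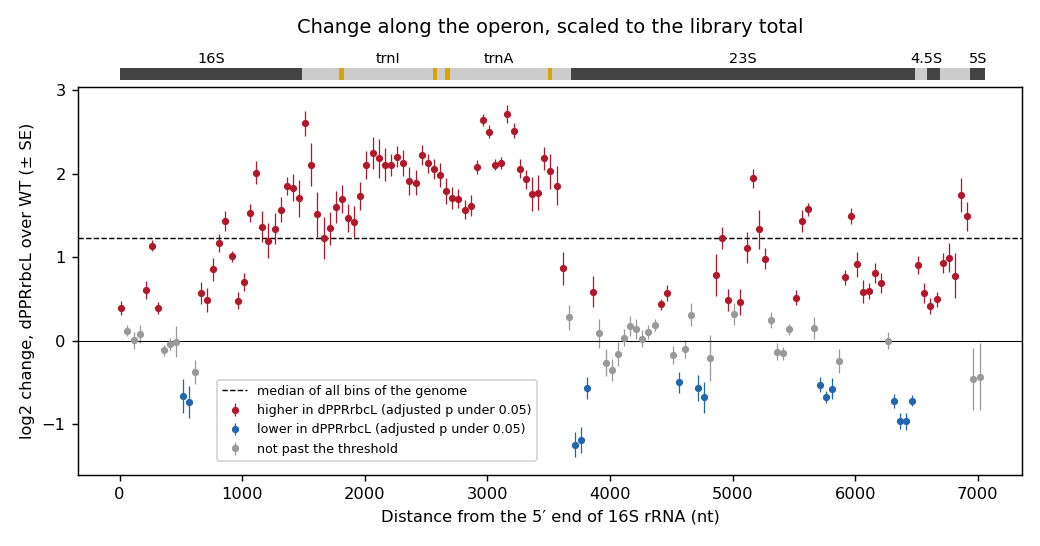
Log2 change of coverage, dPPRrbcL over WT, of each 50 nt bin of the operon relative to the library mean (points with SE, coloured by call), against the distance from the 16S start (nt), with the median of all bins of the genome (1.23) as a dashed line. At this scaling and pseudocount both introns lie above that line, bins of 23S run from -1.25 to 1.95, and all calls of a higher level turn with the scaling to the median ratio.

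In bins of 50 nt, 94 of the 141 bins of the operon were called higher in dPPRrbcL, 15 lower and 32 neither. Over the genome, 94.8% of the 2721 bins tested were called higher and 1.18% lower. All 32 lower bins lay in the 2 copies of the operon, 15 in the first and 17 in the second, whose reads could not be told apart. The library mean was made up mostly of operon coverage, and coverage elsewhere was deeper in dPPRrbcL. Under this scaling lower bins could hardly lie elsewhere, so their location is not a separate result. With scaling to the median ratio, 424 of the 2721 bins of the genome were higher and 584 lower. With scaling to coverage outside rRNA and tRNA genes these counts were 1041 and 320. In the operon, 0 bins were higher under either scaling and 139 or 122 lower. The count of lower bins was 9 without dPPRrbcL replicate 1. Relative to the library mean the operon bins had a median log2 change of 0.85, and all bins 1.23. The order turned with a pseudocount of 10%, at 0.78 for operon bins and 0.22 for all bins. With scaling to the operon mean it also turned, at 0.87 and 0.22. The operon mean was 123069 and 130402 reads per nucleotide in dPPRrbcL, against 140630 and 112739 in WT. The pseudocount of that setting, 1% of the operon mean, was thus larger than 1% of the library mean, and scaling was not varied apart from it.

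Nearly all bins between 16S and 23S were called higher, as were 94.8% of the bins of the genome, while 16S and 23S held bins called in either direction. From 101651 to 104650, 60 adjoining bins were called higher, with log2 changes of 0.48 to 2.72. All 14 bins of the trnI intron (1.42 to 2.25) and all 16 of the trnA intron (1.57 to 2.72) were among them. The exception between both genes was 1 of the 3 bins of the spacer before 23S, which was not called. In 23S, 21 of 56 bins were higher, 13 lower and 22 neither, with changes from -1.25 to 1.95. In 16S, 21 of 30 bins were higher, 2 lower and 7 neither, from -0.73 to 2.01. Both lower bins of 16S stood at 101501 to 101600, in its 5′ part.

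The largest increases stood in the trnA intron and just after 16S. The bin at 104151 to 104200, in the trnA intron, had 6366 and 6051 reads per nucleotide in dPPRrbcL, against 942 and 645 in WT (log2 change 2.72, SE 0.11, limma adjusted p = 0.000125). The bin at 103951 to 104000, in the same intron, had 6456 and 6315 in dPPRrbcL, against 975 and 749 in WT (log2 change 2.64, SE 0.07). The bin at 102501 to 102550, which begins with the last bases of 16S and lies downstream of the CCTCC sequence, had 2769 and 2204 in dPPRrbcL, against 330 and 241 in WT (log2 change 2.60, SE 0.15). Coverage across the 16S 3′ border thus fell to a lower level in WT. Within this spacer, coverage then rose at 102575 in both dPPRrbcL libraries, by 1.27-fold and 1.34-fold, against 102574 in both WT libraries, by 2.11-fold and 2.43-fold.

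The largest decreases stood at the outer ends of 23S. The bin at 104701 to 104750, inside the printed 5′ end, had 93420 and 123522 reads per nucleotide in dPPRrbcL, against 246794 and 227475 in WT (log2 change -1.25, SE 0.15, limma adjusted p = 0.00145). The next bin, at 104751 to 104800, had 135143 and 185604 in dPPRrbcL, against 360233 and 311778 in WT (log2 change -1.19, SE 0.15). At the other end, the bin at 107401 to 107450 had 742966 and 802799 in dPPRrbcL, against 1444345 and 1362028 in WT (log2 change -0.97, SE 0.10, limma adjusted p = 0.00101). Lower bins formed runs at both ends, from 104701 to 104850 and from 107301 to 107500, and another run lay at 106701 to 106850 with changes of -0.67 to -0.53.

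Across the 3′ border of 23S the sign of the change turned within neighbouring bins. The last bin of 23S, at 107451 to 107500, had 325361 and 327494 reads per nucleotide in dPPRrbcL, against 546620 and 455386 in WT (log2 change -0.72, SE 0.07). The bin after it, at 107501 to 107550, had 27930 and 25575 in dPPRrbcL, against 13892 and 12486 in WT (log2 change 0.91, SE 0.11). The turn rests on the scaling to the library mean, but the difference between both bins does not. In the dips, the bin at 106151 to 106200, which holds the low point at nt 1492, had 65234 and 78256 in dPPRrbcL, against 17880 and 16424 in WT, the largest increase within 23S (log2 change 1.95, SE 0.11, limma adjusted p = 0.000213). The bin at 105851 to 105900, which holds the low point at nt 1209, changed by 0.79 (SE 0.25, limma adjusted p = 0.0359). The bin beside it, at 105901 to 105950, changed by 1.22 (SE 0.13). The low points at nt 952 and nt 1756 lie in the bins at 105601 to 105650 and 106401 to 106450. These were not called, with changes of -0.10 (SE 0.11) and -0.15 (SE 0.08). The bins beside them, at 105651 to 105700 and 106451 to 106500, were not called either, with changes of 0.31 (SE 0.14) and 0.14 (SE 0.07).

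Other parts of the same ribosome are encoded by chloroplast mRNAs for ribosomal proteins. All 21 of the intervals tested among 22 for 21 ribosomal protein genes were called higher in dPPRrbcL and 0 lower, with log2 changes of 0.56 to 2.99 relative to the library mean and a median of 1.12. Across the genome 97.3% of the 112 genes tested were called higher and 0 lower, also at an unadjusted p under 0.05, with a median of 1.53. The ribosomal protein mRNAs therefore shared the direction of nearly every gene. The rps14 mRNA, for a small-subunit protein, had 1283 and 1291 reads per nucleotide in dPPRrbcL, against 46.8 and 52.0 in WT (log2 change 2.99, SE 0.07, limma adjusted p = 3.92e-05). The smallest change, of rps15, came from 65.7 and 52.5 in dPPRrbcL, against 0.779 and 0 in WT, where the pseudocount of 1% of the library mean compresses the fold.

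Genes with a pattern like that of 23S were sought over the 4 libraries. By Euclidean distance of centred log2 coverage, the nearest genes outside the inverted repeats were trnF, the tRNA for phenylalanine (distance 0.36), trnfM, the initiator tRNA (0.53), and the tRNA gene ArthCt100 (0.56). The trnF gene had 22.4 and 18.7 reads per nucleotide in dPPRrbcL, against 0.356 and 1.70 in WT. Such levels lie below the pseudocount, which flattens their change on this scale. The log2 changes of trnF, trnfM and ArthCt100 were 0.21, 0.38 and 0.41, opposite in sign to that of 23S, -0.15. The genes named next were also higher in dPPRrbcL, by 0.45 to 0.48, so the likeness to 23S is not one of direction. Among genes that lie in or reach into the first repeat, outside the operon, the nearest were ycf2 (0.60), ndhF (0.62), most of which lies beyond the repeat, and the trnR gene at 108302 to 108375 (0.63), which lies next to 5S and had 62.0 and 67.4 in dPPRrbcL, against 13.0 and 7.38 in WT.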

How the data were processed

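The values are the coverage of every chloroplast position that the authors deposited for each library, a signal called reads per nucleotide in the headers. They are whole numbers, with no strand and no stated normalization. The read mapper, its treatment of the repeated operon and the genome build are not given in the sources used here. The files hold 154478 positions, the length of the TAIR10.1 chloroplast sequence, whose annotation was used. The 5S rRNA is annotated in the second repeat only (130580 to 130700) and was placed in the first by the identical sequence.

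Mean coverage per segment, gene or bin was divided by the library mean, a pseudocount of 1% was added, and log2 values of features with a mean coverage of at least 10 were tested with limma 3.58.1 in R 4.3.3, Benjamini-Hochberg adjusted over the genome at 0.05. The test was checked on simulated data, but with a pseudocount smaller than 1% and with most bins left unchanged. That check therefore does not cover the test with the settings used here. All segments of the operon were described. Bins were named if among the 3 largest called changes in each direction, in a dip or at an rRNA end, and genes if among the 3 nearest to 23S. Ratios within a library used Python 3.11.15 and numpy 2.4.6, with SD and exact permutation tests. No read counts are given, so counting error is unknown. Samples were grouped by title. The members and lists were chosen with earlier results of these data known. Alternatives covered scaling, pseudocount, filter, variance trend, bin width, region summary, repeat copy, pairing and leaving out each library. The same replicate number did not pair libraries.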

Additional observations from a re-analysis of the deposited data

How the results depend on the processing

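Of 240 values for operon segments under alternatives, 193 kept their direction and side of the threshold. The 78 other values have no such threshold. Counts were called the same within a set fold of the main count, and ratios and end offsets if they moved by less than their SD. By these rules 62 stayed the same, 14 moved and 2 reversed. Scaling decided the directions. With the median ratio, and then with coverage away from rRNA and tRNA genes, log2 changes were -3.23 and -2.45 for 16S, -2.04 and -1.33 for the 16S-trnI spacer, -1.85 and -1.13 for trnI exon 1, -1.57 and -0.87 for the trnI intron, -1.49 and -0.78 for trnI exon 2, -1.62 and -0.89 for the trnI-trnA spacer, -1.87 and -1.12 for trnA exon 1, -1.61 and -0.88 for the trnA intron, -1.55 and -0.81 for trnA exon 2, -2.94 and -2.18 for the spacer before 23S, -2.98 and -2.20 for the 23S-4.5S spacer, -3.25 and -2.48 for 4.5S, and -2.69 and -1.96 for the 4.5S-5S spacer. Under the same scalings 23S was called at -3.88 and -3.08, and operon bins were 0 higher under both, with 139 and 122 lower. Of all 2721 bins tested, 424 and 1041 were higher and 584 and 320 lower. The 23S rRNA was also called at -0.049 with operon scaling, and at -0.15 with a pseudocount of 10%, no filter or a variance trend. Bins of 20 nt gave 236 higher and 39 lower, and bins of 100 nt gave 44 and 7. Leaving out 1 library gave 68 to 95 higher and 9 to 19 lower bins, 0.41 to 0.55 for 16S, -0.15 to -0.14 for 23S (called without dPPRrbcL replicate 2), -0.70 to -0.56 for the log2 ratio of 23S to 16S, and -0.67 to 2.12 percentage points for the share of the first 23S stretch. A group left with 1 library is assumed by limma to vary like the other. Without WT replicate 1 the 5S change was 0.029. With median in place of mean coverage the log2 ratio of 23S to 16S was -0.93 and the share of the first stretch -12.1 points, with its sign turned. The 4.5S-5S spacer, at 0.58, was then not called. A dip limit of 75% gave 7 dips. An end level of 25% moved the mean offset to 17.5 nt for the 16S 5′ end, 14.0 nt for the 23S 5′ end and -16.8 nt for the 23S 3′ end; in dPPRrbcL the 16S 3′ end gave no value, since the level was already met in the spacer. Apart from the number of bins, which changes with bin width, the cause of these shifts was not tested. Same-numbered libraries did not deviate together (correlation -0.26 over bins), so the numbers were not treated as pairs. The replicate block gave 94 higher and 17 lower bins, 0.48 for 16S and -0.15 for 23S. The crossed pairing, chosen after seeing the data, gave 96 and 19 bins. Low coverage outside the operon in WT makes log2 changes there depend on the pseudocount. Inside the operon the changes of all spacers and both introns were also smaller with a pseudocount of 10% than with 0.1%, while 23S hardly moved. After the fall in the 4.5S-5S spacer, WT coverage at 107851 to 107900 was close to the pseudocount of 1% of the library mean.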
